A study of Mus musculus with 4 samples.

Results

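Endothelial cells of the Mesp1 lineage that carried no transcript of Nfatc1 were examined in single-cell RNA sequencing of the mouse embryo. Cells were chosen by their own counts of transcripts (UMIs, the distinct captured molecules). A cell was kept when it had 1000 or more detected genes and at most 10% of its UMIs from mitochondrial genes. It was taken as a member when at least 5 of the 8 endothelial genes Cdh5, Pecam1, Kdr, Tek, Tie1, Emcn, Egfl7 and Esam had a UMI, haemoglobin was below 5% of UMIs, Etv2 was below 2 UMIs and Nfatc1 was at 0. This gave 453 of 22625 retained cells (2.0%). The E8.0 library held 90 members, the E8.25 library 64, the E9.5 library 83 and the E10.5 library 216. All cells came from Mesp1Cre;Rosa26-GFPflox/+ embryos of the Swiss Webster strain, in which Cre made from Mesp1, a gene of nascent mesoderm, leaves a lasting GFP label in that cell and its progeny. GFP-positive, DAPI-negative cells of pooled embryos were sorted, and each stage had 1 library. Tissue of the early libraries (E8.0 and E8.25) was the upper part of the body, and that of the late libraries (E9.5 and E10.5) was heart plus pharyngeal apparatus, so stage and region cannot be told apart. The E stages are days of embryonic development, and every group described here shared this genotype, strain and sort.

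Endothelial cells line blood vessels and, as endocardium, the inside of the heart. They arise from mesoderm under VEGF signalling through Kdr and a short pulse of the factor Etv2, and are then maintained by ETS, SOX and GATA factors. Arterial cells use Notch signalling, venous cells Nr2f2, and cells exposed to blood flow raise Klf2. Nfatc1 encodes a calcium-regulated transcription factor known in this tissue as an endocardial and valve gene, which is why its absence was used in naming the members vascular.

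The 5 endothelial marker genes Cdh5 (VE-cadherin), Pecam1, Tie1, Esam and Cldn5 summed to 815, 1039, 1196 and 1287 CPM in stage order. CPM (counts per 1000000 UMIs, from the summed counts of all cells of a class in a library) is the level used throughout, and series of 4 values run in the order of the stages. In non-endothelial cells, those with at most 1 of the 8 genes, the same sum was between 0.995 and 3.77. Since 4 of these 5 genes chose the cells, the sum describes the rule and is no check of the name, and the levels of Cldn5, which was not in the rule, are given below. Genes known from endocardium were found in many members. Of members thinned to 8000 UMIs each, 88.6%, 84.1%, 75.3% and 70.6% had a UMI of Hapln1 and 24.1%, 31.7%, 42.5% and 36.6% a UMI of Npr3. In non-endothelial cells at this depth the shares were 8.80% to 41.6% for Hapln1 and 6.05% to 11.1% for Npr3. In addition, most cells set aside for Nfatc1 carried a single UMI of it, namely 35 of 46, 10 of 10, 36 of 63 and 87 of 130 in stage order. When all cells were thinned to 8000 UMIs before the rule was applied, only 22, 5, 36 and 49 such cells were found. The members are therefore described as endothelial cells without an Nfatc1 UMI.

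The 4 libraries held 2956 to 8070 cells with a median of 15594.5 to 35461 UMIs per cell, and 2 to 28 cells were removed from each. Members had a median of 15817.5, 23395.5, 14318 and 18462 UMIs, and in total 1340846 to 4054194 UMIs per library. They made up 1.19% of retained cells at E8.0 (exact 95% binomial interval 0.956 to 1.46). The share was 2.17% at E8.25 (1.67 to 2.76), 2.05% in the E9.5 library (1.63 to 2.53) and 2.69% in that of E10.5 (2.34 to 3.06). Such intervals cover counting error only, and a share of sorted cells also depends on the sort and the region. Any pair of libraries shared 16 to 88 cell barcodes, and 1 barcode was shared between members, at E8.0 and E10.5.

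Close to the limit of the gate, the 19 members at E8.0 with exactly 5 gate genes had 281 CPM of Cldn5 and 4.39 of the cardiomyocyte gene Tnnt2, against 67.3 and 62.3 in the 29 cells with 4 gate genes that met the rest of the rule. At E9.5 Cldn5 was at 185 CPM in 13 members with 5 genes and at 0 in 12 cells with 4. At E10.5 the order was the other way, with 265 CPM in 23 members just inside and 353 in 23 cells just outside. At E8.25 only 3 members had 5 genes, with 19.1 CPM of Cldn5 and 861 CPM of Tnnt2. Members with 1 Etv2 UMI numbered 36, 18, 19 and 34, and cells just outside with 2 numbered 27, 8, 13 and 11. Gate cells set aside for 2 or more Etv2 UMIs numbered 312, 104, 59 and 63 in stage order. These 538 cells outnumber the 453 members, and at E8.0 they compare with 90 members. The shares and early levels of members are therefore those of a part of the cells that passed the gate.

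A few members carried the markers of other cells. At least 4 of the 5 megakaryocyte genes Pf4, Itga2b, Gp1bb, Ppbp and Plek had a UMI in 0 early members, 4 members of the E9.5 library and 3 members of the E10.5 library. These 4 cells held 1211 of the 1240 UMIs of these genes at E9.5, and the 3 cells held 1986 of 2085 at E10.5. The next-highest other member had 3 and 8 such UMIs, whereas the lowest of the 4 and of the 3 had 68 and 507. The 4 cells had 3 UMIs of Cldn5 and 8 of Cdh5 in all, and the 3 cells 0 and 1. A further 7 members (1, 1 and 5 from E8.25 onwards) had at least 6 of 8 cardiomyocyte genes, and the 1 at E8.25 held 1091 of the 1216 cardiomyocyte UMIs of that library's members. Values without these 14 cells, a choice made after the data were seen, are given beside the results that they moved most. Among the other marker lists, the summed level in members ranged over the 4 libraries from 152 to 794 CPM for cardiomyocytes (non-endothelial cells 484 to 4284), from 40.3 to 4917 for primitive erythroid cells (9.17 to 5006), from 0.641 to 34.3 for macrophages (0.337 to 78.1; C1qa at 0), from 72.3 to 185 for mesenchyme (362 to 724), from 75.7 to 151 for neural crest (16.3 to 52.5; Foxd3 at 0), from 19.4 to 225 for epithelium (67.8 to 492; Foxa2 at 0), from 9.61 to 17.6 for branchiomeric muscle (56.2 to 206) and from 30.8 to 80.7 for the second heart field (133 to 365). Most of the neural crest sum in members was Ets1 (93.5, 66.6, 97.0 and 149 CPM), which endothelium also expresses. With the cells of highest doublet score removed, the erythroid sum in members went from 1145, 3131, 40.3 and 4917 CPM to 137, 3140, 27.4 and 4943. The cardiomyocyte sum went from 152, 794, 220 and 450 CPM to 156, 818, 220 and 143. The part of the members with markers of other cells in the results below was not tested beyond leaving out the 14 and the removal of doublets.

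**Figure D1:**
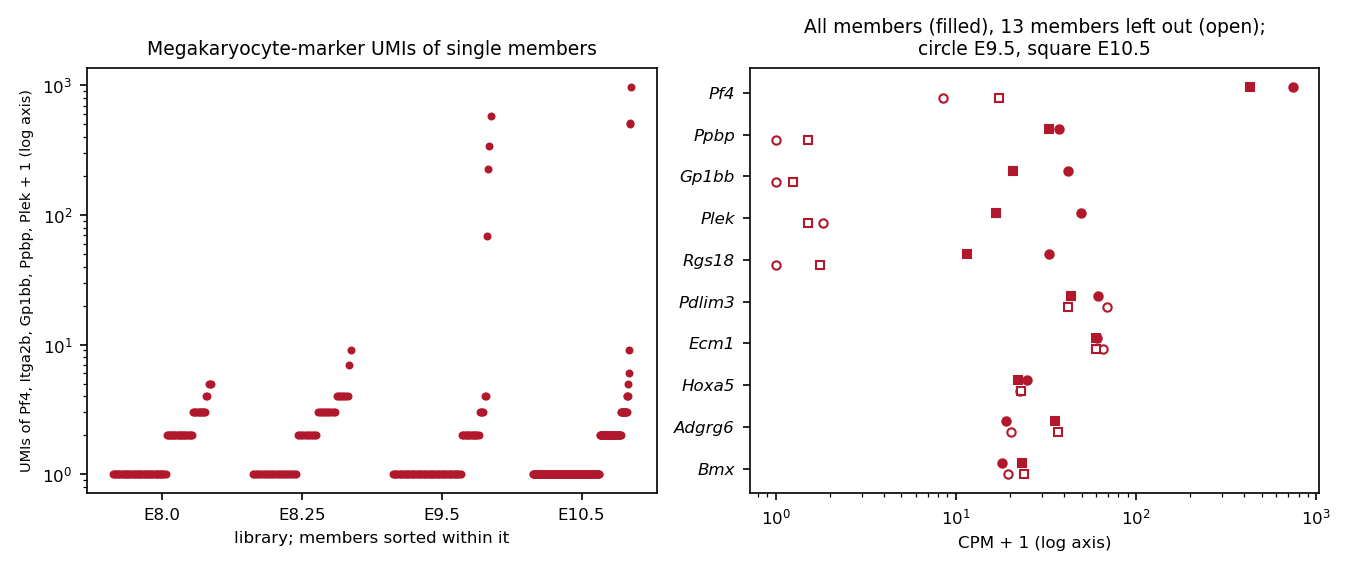
Left, UMIs of the 5 megakaryocyte genes in each member plus 1 (log axis), 1 point per cell, sorted within its library; 4 points at E9.5 and 3 at E10.5 stand at 68 UMIs or more while no other member passed 8. Right, CPM plus 1 (log axis) of 10 late genes at E9.5 (circles) and E10.5 (squares) in all members (filled) and without 13 late members that carried markers of another cell type (open); the 5 upper genes drop and the 5 lower ones hardly move.

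The first comparison asked what these cells express beyond the gate. Because the cells were chosen on endothelial genes, the contrast with non-endothelial cells of the same libraries is a description, with no test read from it. By edgeR, 2169 of 13202 genes were called higher in members (16.4%) and 2208 lower (16.7%). The 15 genes with the largest difference by the fixed rule were all at or below 2.24 CPM in non-endothelial cells.

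Cldn5 encodes the claudin that seals endothelial tight junctions and led the list. It stood at 282, 362, 508 and 617 CPM, against 1.12, 2.24, 0.392 and 1.82 in non-endothelial cells. Its level was thus higher in each later library, and no library of one class overlapped the other class. Icam2, an endothelial adhesion molecule, was at 182, 262, 347 and 259 CPM, and Ctla2a, a cathepsin inhibitor, at 263, 394, 259 and 172 with its relative Ctla2b at 73.0, 77.7, 34.3 and 27.4; the near-identical sequences of this pair may have divided reads between them. Ctla2a and Ctla2b were lowest at E10.5. Gja4, the arterial connexin 37, had 74.3, 94.0, 97.0 and 123 CPM, and Cd93, a receptor of endothelial adhesion, 30.1, 70.5, 99.9 and 106.

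Genes of 3 GTPases of immune-associated proteins, Gimap4, Gimap1 and Gimap6, were among the 15. Gimap4 and Gimap1 were even over the stages (53.8 to 70.3 and 72.4 to 94.7 CPM), while Gimap6 had 14.1, 22.8, 121 and 123, low in both early libraries and high in both late ones. Mmrn1, which encodes multimerin 1 of platelets and endothelium, showed the same early and late split at 1.92, 6.53, 41.8 and 40.9 CPM, and was at 1.92, 6.71, 40.3 and 39.6 without the 14 members with markers of another type. Clec1b, best known as the podoplanin receptor of platelets, had 65.3, 55.5, 134 and 118 CPM and kept 65.3, 57.0, 98.1 and 111 without those cells. Lyve1, a hyaluronan receptor of lymphatic and some embryonic endothelium, went the other way, from 87.8, 159, 6.71 and 14.3. Kcne3 (a potassium channel subunit) was at 112, 155, 38.0 and 89.3 CPM, Sost (a secreted Wnt inhibitor) at 19.2, 81.6, 31.3 and 25.4 and Myct1 at 28.2, 33.9, 55.9 and 58.0.

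**Figure D2:**
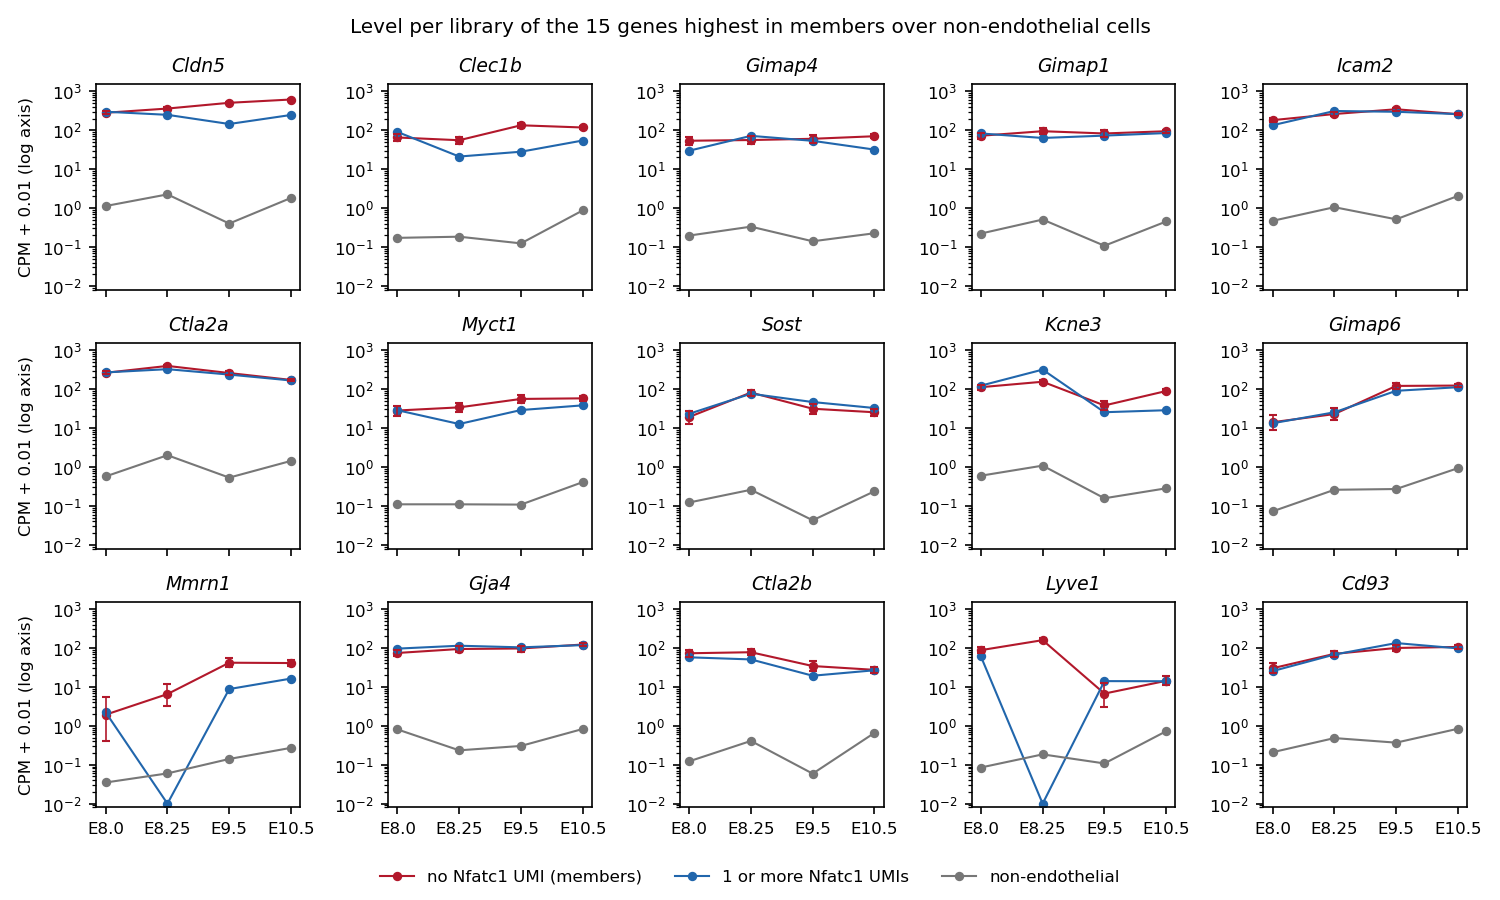
CPM plus 0.01 (log axis) by library for the 15 genes highest in members over non-endothelial cells, in members (red, bars are exact 95% Poisson intervals of the counts), endothelial cells with an Nfatc1 UMI (blue) and non-endothelial cells (grey); a point at 0.01 is a count of 0. Members and Nfatc1 cells lie close together for most genes and both lie far above the grey line, with Cldn5 (617 against 247 CPM at E10.5) as an exception.

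Start regions of leading genes were read from RefSeq to show what DNA precedes them. Of the 15 genes 12 had an entry, with 14 promoters. The 250 bases before the start are given for Cldn5, the leading gene (chr16:18776597-18776846, plus strand), and for Myct1, 1 of the 2 leading genes with a GATA motif (chr10:5593478-5593727, plus strand), in build GRCm38.p6 and in the direction of the gene, with the GATA motif of Myct1 in capitals.
Cldn5: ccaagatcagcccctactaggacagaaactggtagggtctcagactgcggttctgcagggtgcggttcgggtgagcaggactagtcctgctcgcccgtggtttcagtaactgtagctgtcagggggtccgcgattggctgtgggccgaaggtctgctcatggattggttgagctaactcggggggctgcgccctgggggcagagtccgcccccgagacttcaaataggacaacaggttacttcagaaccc
Myct1: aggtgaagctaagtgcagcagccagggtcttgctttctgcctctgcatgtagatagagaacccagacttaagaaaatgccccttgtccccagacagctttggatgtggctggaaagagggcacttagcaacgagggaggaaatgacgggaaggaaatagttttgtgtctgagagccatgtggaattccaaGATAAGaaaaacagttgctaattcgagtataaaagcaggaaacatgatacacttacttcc
The motifs searched, on both strands, were CCGGAAGT for ETS factors, GTAAACA for forkhead factors, GATAAG for factors of the GATA family, AACAAT for SOX factors and GTGGGAA for RBPJ, the factor through which Notch acts. No ETS, FOX or RBPJ motif was found in the 14 promoters, a GATA motif was in 2 (Clec1b and Myct1) and a SOX motif in 3 (Ctla2a, Ctla2b and Mmrn1). Over all 32851 promoters the shares with each motif were 2.88% (ETS), 3.17% (FOX), 6.55% (GATA), 9.42% (SOX) and 5.42% (RBPJ). These matches describe letters in a short window and are not binding sites.

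Endothelial gene groups outside the gate followed the choice of cells. All 30 pan-endothelial genes were called higher, with a median log2 difference of 5.97 against -0.08 over all genes tested. Ramp2, the partner of the adrenomedullin receptor, was the highest of them at 729, 771, 846 and 792 CPM, and Crip2 had 636, 764, 723 and 546. The VEGF receptor Flt1 was at 202, 238, 160.3 and 132 CPM and Plvap, the diaphragm protein of endothelial pores, at 250.5, 584, 412 and 466. Of haematoendothelial transcription factors 14 of 16 were higher, among them Fli1 (186, 151, 139 and 90.8 CPM), Elk3 (149, 169, 178 and 213), Lmo2 (183, 96.0, 218 and 156) and Hhex (99.3, 121, 87.3 and 71.3). Fli1 was lower in each late library than in each early one. Runx1, the factor of blood formation from endothelium, was at 1.28, 0, 9.70 and 2.47 CPM in members and 2.62, 1.35, 2.04 and 5.71 in non-endothelial cells, above them at E9.5 alone. Without the 14 members with markers of another type, Runx1 was at 1.28, 0, 1.68 and 2.32 CPM, below them in each library. In the endocardial list 6 of 12 genes were higher and 0 lower. In the haemogenic list 4 of 9 tested genes were higher, Itga2b, Kit, Adgrg1 and Cd44, with Itga2b at 26.9, 40.5, 51.5 and 18.5 CPM in all members and 26.9, 41.6, 15.1 and 7.47 without the 14, while Gfi1 and Ptprc were at 0 UMIs in the members of every library.

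Arterial and venous genes were both present. Of 14 tested arterial genes 12 were higher and 1, Jag1, was lower (9.61, 1.96, 5.22 and 11.6 CPM against 16.5, 11, 20.7 and 21.2). Sox17 was at 73.7, 105.1, 115 and 72.0 CPM, the Notch ligand Dll4 at 32.7, 38.5, 25.4 and 22.0 and the connexin gene Gja5 at 18.6, 9.79, 61.9 and 36.0. Of 11 venous and lymphatic genes 6 were higher and 2 lower. Aplnr, the apelin receptor, was near level in members at 158, 179.5, 148 and 192 CPM, while non-endothelial cells had 60.4, 51.3, 11.6 and 1.46, so that its ratio between the classes was larger late. Nr2f2, the venous factor, was lower in members than in non-endothelial cells in each library (42.9, 55.5, 84.3 and 94.0 against 71.2, 109, 168 and 121 CPM). Prox1, the lymphatic factor, had 6.41, 1.31, 6.71 and 12.1 CPM.

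Signalling genes were called in both directions. Among 14 VEGF and angiopoietin genes 6 were higher and 5 lower: the receptors Flt1, Flt4, Nrp1 and Aplnr with Apln and Ptprb were higher, and the ligand genes Vegfa, Vegfb, Pgf, Angpt1 and Apela lower. Vegfa was at 12.8, 3.26, 2.24 and 8.63 CPM in members and 24.9, 4.79, 5.68 and 20.3 in non-endothelial cells. In the Notch pathway 7 of 14 were higher and 3 lower, with Notch1 at 81.4, 49.6, 50 and 60.2 CPM and the feedback gene Nrarp at 33.3, 67.9, 32.1 and 41.4, whereas Notch2 and Notch3 were lower. Of 13 TGF-beta and BMP genes 9 were higher and 1, Id2, lower; Tgfb1 had 246, 242, 206 and 205 CPM against 18.5, 7.13, 6.63 and 15.9. The tip cell list had 7 of 12 higher and 1 lower, with Igfbp3 at 76.9, 209.6, 76.8 and 108 CPM and Esm1 at 7.05, 45.7, 17.9 and 3.95, both highest at E8.25. In the chemokine axis 0 of 4 were higher and 2, Cxcl12 and Cxcl13, lower.

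Structural genes of the vessel wall were higher as well. Of 12 basement membrane genes 10 were higher, led in level by Sparc at 548, 929.6, 662 and 603 CPM, with Col4a1 at 161, 196, 199 and 287 against 59.0, 56.2, 26.6 and 41.9 in non-endothelial cells. Of 12 junction genes 9 were higher and 2, Jam3 and Vcam1, lower. Of 11 flow response and lumen genes 9 were higher, among them Nos3, the endothelial nitric oxide synthase, at 40.4, 34.6, 33.6 and 28.1 CPM. Of 13 guidance genes 8 were higher and 2 lower, and of 7 barrier transport genes 3 were higher and 1 lower. Slc2a1, the glucose transporter of the blood-brain barrier, was at 457, 967, 318 and 125 CPM, highest at E8.25 and lowest at E10.5, and non-endothelial cells were also lower late at 284, 277, 114 and 46.3.

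Mesenchymal and positional genes were lower in members. Of 9 genes of endothelial-to-mesenchymal transition 8 were called lower and 0 higher, with Cdh11 at 6.41, 9.14, 8.95 and 28.1 CPM against 59.6, 72.7, 54.2 and 106 and Twist1 at 41.0, 33.9, 5.97 and 11.3 against 98.7, 107, 25.5 and 78.7. Of 10 positional genes 8 were lower and 0 higher. By the rule for the largest differences the lower genes were Nppa, Cxcl13, Myl2, Meox1, Robo2, Prrx1, Ntng1, Arg1, Dact1 and Tbx18, which stood at 0 to 28.1 CPM in members; Meox1, a somite factor, had 11.5, 6.53, 0 and 2.47 against 140.3, 156, 22.8 and 24.5, and Prrx1, a factor of limb and facial mesenchyme, 7.05, 1.96, 1.49 and 9.87 against 49.2, 43.7, 81.0 and 135. Cell cycle genes differed little: of 14, 2 (Cdk1 and Cdkn1c) were higher and 1 (Ccnb1) lower, and Mki67 was at 106, 76.4, 59.7 and 70.8 CPM against 73.9, 54.7, 59.3 and 90.1. Of 9 developmental timing genes 1 was higher and 4 lower. Of 8 imprinted genes 4 were higher, namely Mest (2443, 3244, 1817 and 1999.7 CPM), H19 (1104, 1172, 1278 and 1355), Igf2 and Cdkn1c, and 2 were lower.

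Members were then compared with one another after each cell was thinned to 8000 UMIs, which left 79, 63, 73 and 194 members and left out 11, 1, 10 and 22 shallower ones. A UMI of Cldn5 was found in 64.6, 82.5, 69.9 and 62.4% of them, and in 0.350% to 1.97% of non-endothelial cells at the same depth. Without thinning the shares in members were 76.7, 92.2, 72.3 and 69.0%. A cell had a median of 2 Cldn5 UMIs in each library and the highest had 11, 11, 13 and 26, so even the leading gene was missing from 28, 11, 22 and 73 members at this depth. Plvap was found more widely, in 79.7, 88.9, 90.4 and 87.6% (unthinned 90.0, 95.3, 95.2 and 94.4%).

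Gja4 was found in 30.4, 31.7, 31.5 and 34.5% of thinned members (unthinned 41.1, 46.9, 34.9 and 40.7%), a share that moved little with stage. It was found in at most 0.592% of non-endothelial cells. In thinned endothelial cells with an Nfatc1 UMI, Gja4 was found in 28.6% at E8.0 and in 2 of 10 cells at E8.25. The shares in such cells were 33.9% at E9.5 and 45.5% at E10.5. They were below those of members in both early libraries and above them in both late ones, without a test. Aplnr was found in 63.3, 74.6, 45.2 and 45.4% (unthinned 83.3, 87.5, 50.6 and 54.6%). At E8.0 both genes were found together in 15 of the 24 members with Gja4, at E8.25 in 13 of 20, at E9.5 in 5 of 23 and at E10.5 in 10 of 67. Early members with the arterial connexin thus mostly also had the apelin receptor, but so did early members at large (63.3 and 74.6%). Late members with Gja4 mostly did not, while Aplnr was in 45.2 and 45.4% of all late members. These are counts without a test. At least 2 of Gja4, Gja5, Dll4, Hey1 and Sox17 were found in 31.6%, 41.3%, 35.6% and 24.2% of members, and Aplnr with Nr2f2 in 11.4%, 27.0%, 20.5% and 21.1%. Non-endothelial cells had Aplnr with Nr2f2 in 11.4%, 13.2%, 2.61% and 0.572%, so that at E8.0 the share in members was no higher than in cells outside the gate.

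Lyve1 was restricted to few cells. It was found in 12, 13, 2 and 13 thinned members, with up to 13, 16, 4 and 4 UMIs in a single cell, while the median member had 0 at each stage. The scavenger receptor Stab2 was found with Lyve1 in 3 members at E8.0 and 3 at E8.25 and in no early member without it. At E9.5 and E10.5 it was found in 2 and 5 members without Lyve1 and in 0 and 1 with it. Mmrn1 and Gimap6 were together in 0, 0, 7 and 33 members. Npr3 with Hapln1, a pair known from endocardium, was found in 21.5%, 22.2%, 28.8% and 30.4% of members and in 0.848% to 5.43% of non-endothelial cells. Cells with an Nfatc1 UMI had the pair in 16.7%, 40.0% (of 10 cells), 51.6% and 45.5%.

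**Figure D3:**
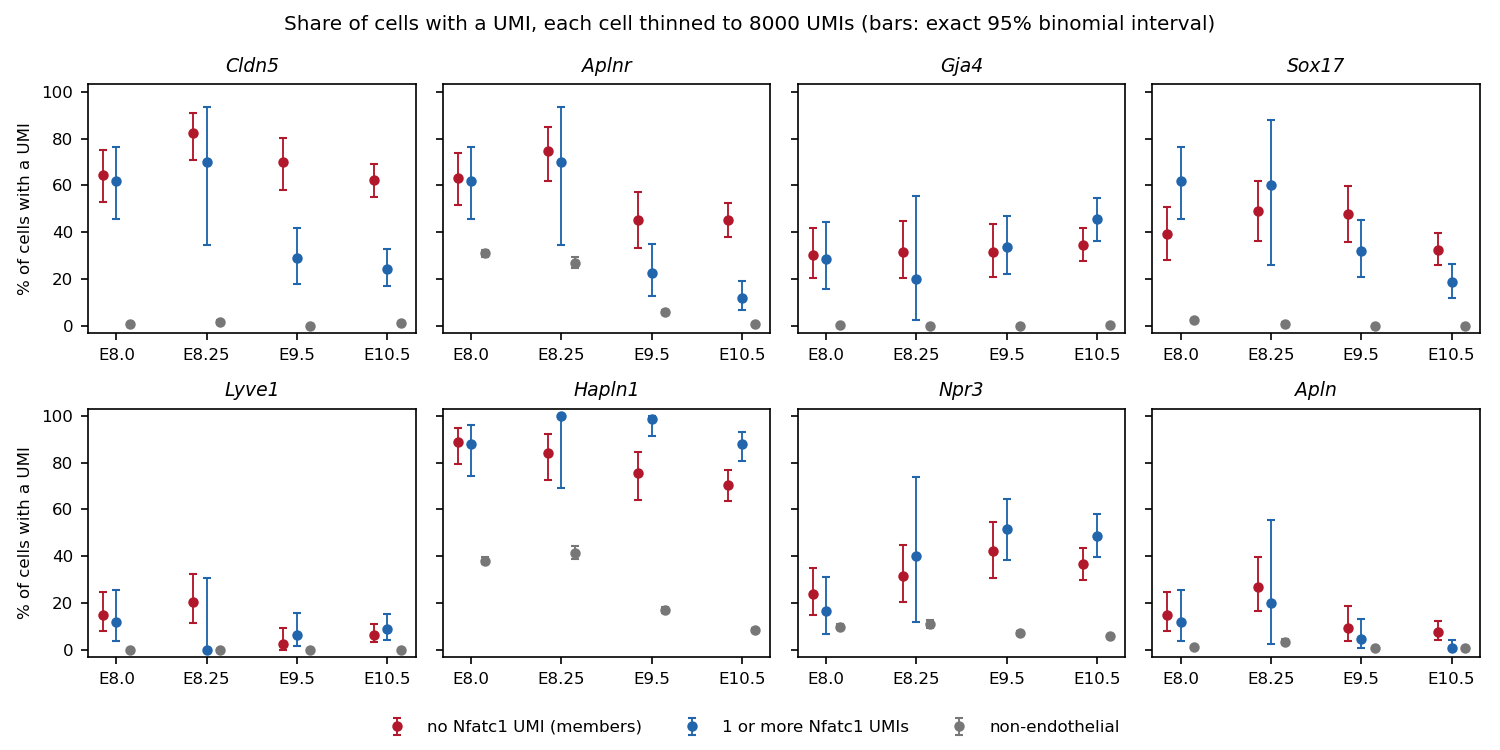
Share of cells with a UMI (percent, with exact 95% binomial intervals) by library for 8 genes, each cell thinned to 8000 UMIs, in members (red), endothelial cells with an Nfatc1 UMI (blue) and non-endothelial cells (grey). Cldn5 and Aplnr part between red and blue at E9.5 and E10.5 (Cldn5 62.4% against 24.4% at E10.5) and not at E8.0, and Hapln1 is in most cells of both.

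Endothelial cells of the same gate with 1 or more Nfatc1 UMIs (46, 10, 63 and 130 cells) gave the second comparison, which asked how the split on this gene divides the endothelium. Median depth was 18735.5, 23384, 17416 and 17554.5 UMIs in these cells, above that of members at E8.0 and E9.5; the part of depth in the differences was not tested beyond thinning. Summed counts of each class were compared by edgeR's quasi-likelihood test with the library as a block, so n is 4 libraries. Of 8371 genes 12 were called higher in members (0.143%) and 31 lower (0.37%) at a Benjamini-Hochberg adjusted p below 0.05. These calls were fragile. Without E9.5 the test called 3 genes and without E10.5 1 gene, without E8.0 99 and without E8.25 72, DESeq2 called 9, and 0 were called without the block (147 at an unadjusted p under 0.05). With cells carrying markers of another type left out of both classes, 24 genes were called higher and 55 lower. At E10.5 this also took 4 of the 130 cells with Nfatc1. Of these, 3 carried megakaryocyte markers and held 1654 of the 1720 UMIs of those genes in that class. The 4 libraries differ in stage and region, so the test treats a difference repeated across stages as its replicate.

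Gata4, Gata5, Tbx20, Hapln1 and Npr3 were called lower in members. The summed level of the second heart field markers was not lower throughout, at 30.8, 37.2, 37.3 and 80.7 CPM against 33.2, 38.0, 30.7 and 50.6. Gata4, a cardiac and endocardial factor, was at 7.05, 2.61, 23.9 and 26.9 CPM against 24.3, 25.4, 79.9 and 82.1 in cells with Nfatc1, lower in 4 of 4 libraries (log2 difference -1.72 ± 0.17 SE, adjusted p = 0.000199, edgeR). Its relative Gata5 was at 1.92, 4.57, 25.4 and 26.1 against 15.5, 25.4, 71.1 and 66.1 (log2 difference -1.53 ± 0.20 SE, adjusted p = 0.00236, edgeR). Tbx20 was at 16.0, 13.7, 26.1 and 54.0 against 28.7, 16.9, 46.5 and 231 CPM, with the widest gap at E10.5 (log2 difference -1.58 ± 0.21 SE, adjusted p = 0.00275, edgeR; -0.77 without E10.5). Hapln1, a linker of the hyaluronan matrix, was at 379, 348, 480.3 and 292 against 471, 431, 779 and 646 (log2 difference -0.67 ± 0.11 SE, adjusted p = 0.0138, edgeR), and the natriuretic clearance receptor Npr3 at 33.3, 48.3, 90.2 and 71.5 against 35.4, 67.6, 161 and 119.9 (log2 difference -0.65 ± 0.13 SE, adjusted p = 0.0286, edgeR). In the endocardial list 6 of 12 tested genes (with Klf2) were called lower and 0 higher, with a median log2 difference of -0.70 against 0.00103 over all genes. The list was assembled from genes known to accompany Nfatc1, with earlier results of these data known.

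Flow, matrix and BMP genes were among the other lower genes. Klf2, induced by shear stress, was at 19.9, 68.5, 245 and 216 against 35.4, 50.7, 606 and 411 CPM, lower in 3 of 4 libraries and not at E8.25. Smad6 and Smad7, inhibitors of BMP signalling, were called lower, with Smad6 at 18.6, 19.6, 40.3 and 25.2 against 22.1, 42.3, 80.8 and 64.5 CPM. Fibronectin (Fn1) was at 377, 262, 374 and 426 against 406, 397, 740.3 and 861, and the early libraries differed less than the late ones. Ccdc80 and Ecm1, both of the extracellular matrix, Rnd2, Cbfa2t3, Emp3 and Kdelr3 completed the 10 lower genes taken by the rule, with log2 differences between -1.21 and -0.76. Pdlim3, a protein of the actin cytoskeleton, had the lowest value at -2.17 and stood at 0, 1.31, 60.4 and 42.7 against 0, 4.23, 176 and 259 CPM; it was at 0 in both classes at E8.0, so it was not lower in 4 of 4 libraries and was named after its value was seen.

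Only 8 higher genes met the rule. Tcf15, a factor of paraxial mesoderm also described in heart endothelium, was at 23.1, 29.4, 23.1 and 27.9 against 6.63, 21.1, 5.27 and 12.7 CPM (log2 difference 1.35 ± 0.25 SE, adjusted p = 0.0212, edgeR). It was far higher in early non-endothelial cells (146, 149, 4.08 and 15.5 CPM), and the call was lost with doublets removed. Arhgap18 was at 34.0, 43.7, 36.5 and 54.0 against 26.5, 33.8, 12.3 and 21.9 (log2 difference 1.05 ± 0.20 SE, adjusted p = 0.0255, edgeR) and had 0.686 to 2.39 CPM in non-endothelial cells. Gchfr was at 73.7, 52.2, 52.2 and 58.7 against 45.3, 29.6, 32.5 and 32.7 and Asb4, an endothelial ubiquitin ligase subunit of the early vessel, at 37.2, 69.9, 113 and 146 against 28.7, 42.3, 79.9 and 84.1. The G1 cyclin Ccnd1, the G-protein subunit Gng11, the actin-binding Cnn2 and the RNA-binding Zfp36l1 differed by 0.47 to 0.58 on the log2 scale. In 6 of the 8 genes the difference was under 1 on the log2 scale. All 8 were higher in 4 of 4 libraries because the rule required it.

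Cldn5 and Aplnr differed between the classes most in the late libraries by value, and neither passed the threshold with all members. Cldn5 was at 282, 362, 508 and 617 CPM in members and 299, 249, 145 and 247 in cells with Nfatc1 (log2 difference 0.96 ± 0.20 SE, adjusted p = 0.0505, edgeR), higher in 3 of 4 libraries. With cells carrying markers of another type left out of both classes, the log2 difference of Cldn5 was 0.99 and it was called higher (adjusted p = 0.0136, edgeR). Aplnr was at 158, 179.5, 148 and 192 and 156, 182, 54.4 and 56.6 (log2 difference 0.91 ± 0.23 SE, adjusted p = 0.125, edgeR). In thinned cells Cldn5 was found in 61.9, 70.0, 29.0 and 24.4% and Aplnr in 61.9, 70.0, 22.6 and 12.2% of cells with Nfatc1. Whether the early and late differences themselves differ was not tested. Apln, the ligand of Aplnr, was at 25, 47.0, 13.4 and 17.8 against 18.8, 16.9, 5.27 and 4.78 CPM, higher in 4 of 4 libraries (log2 difference 1.24 ± 0.27 SE, adjusted p = 0.0584, edgeR).

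For the other fixed lists no gene was called in either direction among pan-endothelial (0 of 29), arterial (0 of 13), venous (0 of 8), mesenchymal transition (0 of 8), VEGF (0 of 10), Notch (0 of 10), haematoendothelial (0 of 14), haemogenic (0 of 3), tip cell (0 of 8), junction (0 of 9), barrier (0 of 5), guidance (0 of 9), proliferation (0 of 14), timing (0 of 8) or positional genes (0 of 6). In the flow list 1 of 9 (Klf2), the basement membrane list 1 of 11 (Fn1), the imprinted list 1 of 8 (H19) and the TGF-beta and BMP list 2 of 13 were lower. A gene that missed the threshold in 4 libraries is not thereby shown to be equal. Over all 8371 genes tested 0.143% were called higher and 0.37% lower. A list this short with 0 calls is therefore near the share over all genes and is no result about its genes.

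**Figure D4:**
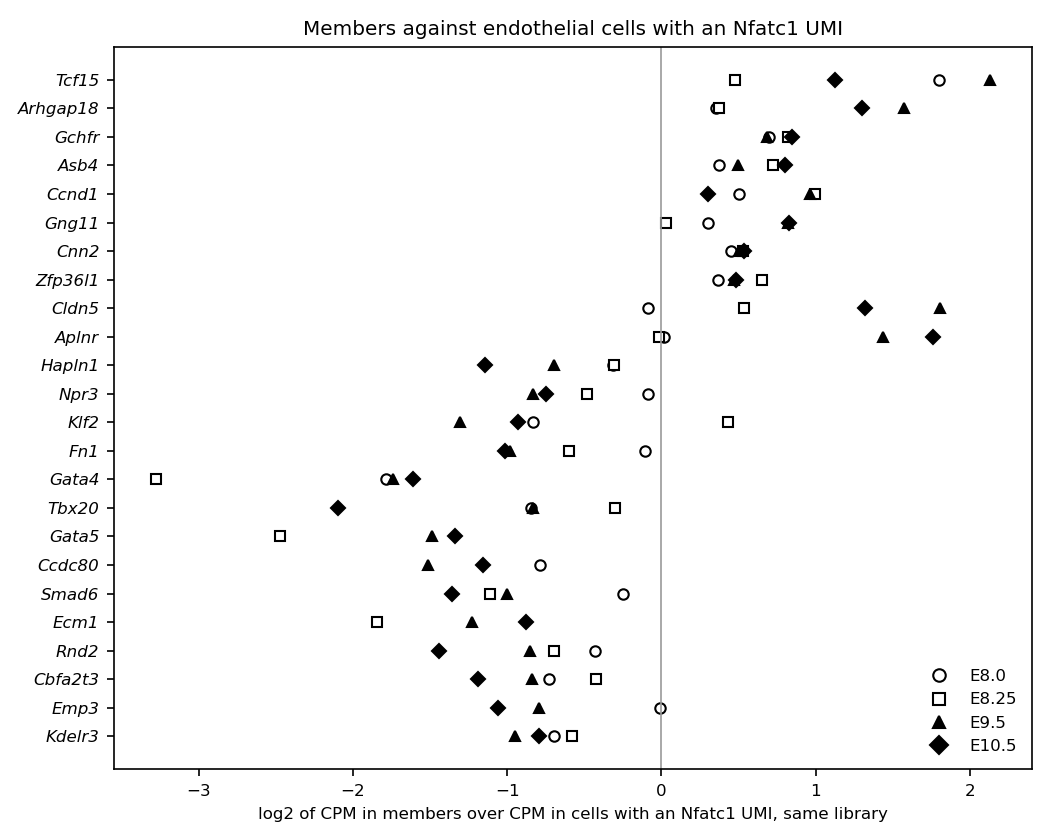
Log2 of CPM in members over CPM in endothelial cells with an Nfatc1 UMI, 1 point per library (open early, filled late), for the genes taken by the rule with Cldn5, Aplnr, Hapln1, Npr3, Klf2 and Fn1; a library is left out where either class had 3 UMIs or fewer. Gata4, Gata5, Smad6 and Fn1 lie left of 0 in every library shown, and Cldn5 and Aplnr lie right of 0 by over 1 only at E9.5 and E10.5.

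The third comparison set the late libraries against the early ones. With 1 library per stage there is no test, and a gene was counted when its level in each late library was at least 2-fold above, or below, that in each early library. Among 10578 genes with 20 or more UMIs in members 350 were higher late (3.31%) and 142 lower late (1.34%). By the same rule 1336 and 441 of 16271 genes differed in non-endothelial cells, of which 124 (35.4% of the members' genes and 9.28% of the others') and 29 (20.4% and 6.58%) were shared. Leaving out 1 library changed these counts to 644 and 272 (without E8.0), 811 and 202 (without E8.25) and 582 and 258 (without E9.5). Without E10.5 there were 288 higher and 336 lower, so that the excess of higher genes turned, and 158 of the 350 and 123 of the 142 still passed. A gene past the fold with every library is past it with 1 left out. The genes lost were therefore those under 20 UMIs in the libraries left, and 9217 genes were read without E10.5. Fewer libraries also make the fold easier to pass, so these counts cannot show how far a gene rests on 1 library.

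Of the 15 genes with the largest late excess, 7 (Pf4, Ppbp, Gp1bb, Gp9, Rgs18, Fcer1g and Plek) no longer passed once the 14 cells with markers of another type were left out. Pf4, the platelet chemokine, was at 13.5, 7.83, 747 and 428 CPM in all members and at 13.5, 8.05, 7.55 and 16.5 without them. After this step 319 genes were higher late and 143 lower late, of which 280 and 120 were among the 350 and 142.

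Among genes that remained the leading ones were mostly low or absent in early members. Without those cells Pdlim3 was at 0, 0.671, 67.9 and 40.9 CPM. Bmx, an arterial kinase gene, had 0 UMIs in both early libraries and 18.4 and 22.9 CPM late, Adgrg6 had 0, 1.34, 19.3 and 35.8 over the 4 libraries, and Col15a1, a vascular basement membrane collagen, 0.641, 5.37, 24.3 and 46.1. Madcam1, the mucosal addressin, was at 0.641, 1.34, 20.1 and 20.1 CPM and was at most 0.0455 CPM in non-endothelial cells of any stage. Pcdh17, Ecm1, Sdpr (a caveolar coat protein), Nts, Trim47, Gata5 and Hoxa5 followed the same course, with Ecm1 at 0.641, 6.04, 64.6 and 59.2 and Sdpr at 2.56, 9.39, 62.1 and 120.5. Prl3b1, a gene of the prolactin family, had 0, 0.671, 36.1 and 31.9 CPM. These late genes were also higher late in cells with Nfatc1 for Pdlim3 (0, 4.23, 176 and 259) and Sdpr (3.32, 0, 97.5 and 177).

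Among the fixed lists the shear-stress factor Klf2 was at 19.9, 68.5, 245 and 216 CPM, while non-endothelial cells had 2.15 to 5.41. In the flow list 3 of 11 genes (Klf2, Klf4 and Cav1) were higher late and in the endocardial list 4 of 12 (Klf2, Gata4, Gata5 and Adgrg6). Vwf, the clotting factor of mature endothelium, was at 3.84, 1.31, 19.4 and 34.0 CPM and Robo4, an endothelial guidance receptor, at 5.13, 3.26, 14.9 and 18.0; with Ly6c1, which was lower late at 14.7, 13.7, 1.49 and 4.44, they were the 3 of 30 pan-endothelial genes past the fold. Cdkn1c, an imprinted inhibitor of the cell cycle, was at 344, 437, 1621 and 3082 CPM in members, 344, 486, 3139 and 4814 in cells with Nfatc1 and 484, 219.5, 585 and 769 in non-endothelial cells. It was the only gene past the fold of 14 proliferation genes and of 8 imprinted genes, and Mki67 was at 106, 76.4, 59.7 and 70.8.

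Timing and positional genes changed in both directions. Lin28a, an RNA-binding protein of early embryonic cells, was at 75.6, 77.7, 7.46 and 0.987 CPM and Trim71 at 46.8, 39.8, 18.6 and 9.87, both lower late as in non-endothelial cells (129.6, 134, 42.6 and 8.77 and 56.9, 48.1, 17.6 and 9.39), and Nfia was higher late at 3.84, 2.61, 12.7 and 33.5. Of 10 Hox and positional genes Hoxa3 and Hoxa5 were higher late and Hoxb1, Hoxb5 and Cdx2 lower late. The largest late deficits of all genes were in Phlda2 (110.2, 55.5, 1.49 and 2.96 CPM), Ifitm1 (238, 106, 11.9 and 6.17), Krt19, Lin28a, Cyp26a1, Hoxb8, Gm43998, Lyve1, Hand1, Krt8, Sapcd1, Rspo3, Fst, Krt18 and RP23-4H17.3. Cyp26a1, which degrades retinoic acid, was at 147, 123, 14.9 and 2.71 CPM in members against 26.1, 18.0, 9.61 and 20.4 in non-endothelial cells, an early excess that was absent by E10.5. Gm43998 was at 24.3, 17.6, 1.49 and 0.247 CPM and at most 0.150 in non-endothelial cells. Krt8 and Krt18 were at 35.9, 123, 10.4 and 6.66 and 26.9, 102, 8.95 and 10.9 CPM, below the levels of non-endothelial cells in each library.

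Other lists had few genes past the fold. Without the 14 cells, Gja5 and Bmx of 15 arterial genes were higher late. Of 10 venous genes 1 (Lyve1) was lower late, of 9 mesenchymal transition genes Tgfb2 was higher and Twist1 lower, of 13 TGF-beta and BMP genes Id2 and Smad7 were higher, and of 12 guidance genes Robo4 was higher. In the haemogenic list Adgrg1 was higher late with all members and not without the 14 cells, when Spi1 was lower late instead (11.5, 6.04, 0.839 and 1.29 CPM). Among timing genes Nfib was higher late only without them (25, 39.6, 79.7 and 81.9 CPM, and 25, 39.2, 71.6 and 81.9 in all members). No gene passed among 13 VEGF, 12 Notch, 16 haematoendothelial, 12 tip cell, 11 junction, 11 basement membrane or 3 chemokine genes, and among barrier genes Slc2a3 passed only without the 14 cells. Sox18 moved without order, at 172, 91.4, 35.8 and 129 CPM.

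**Figure D5:**
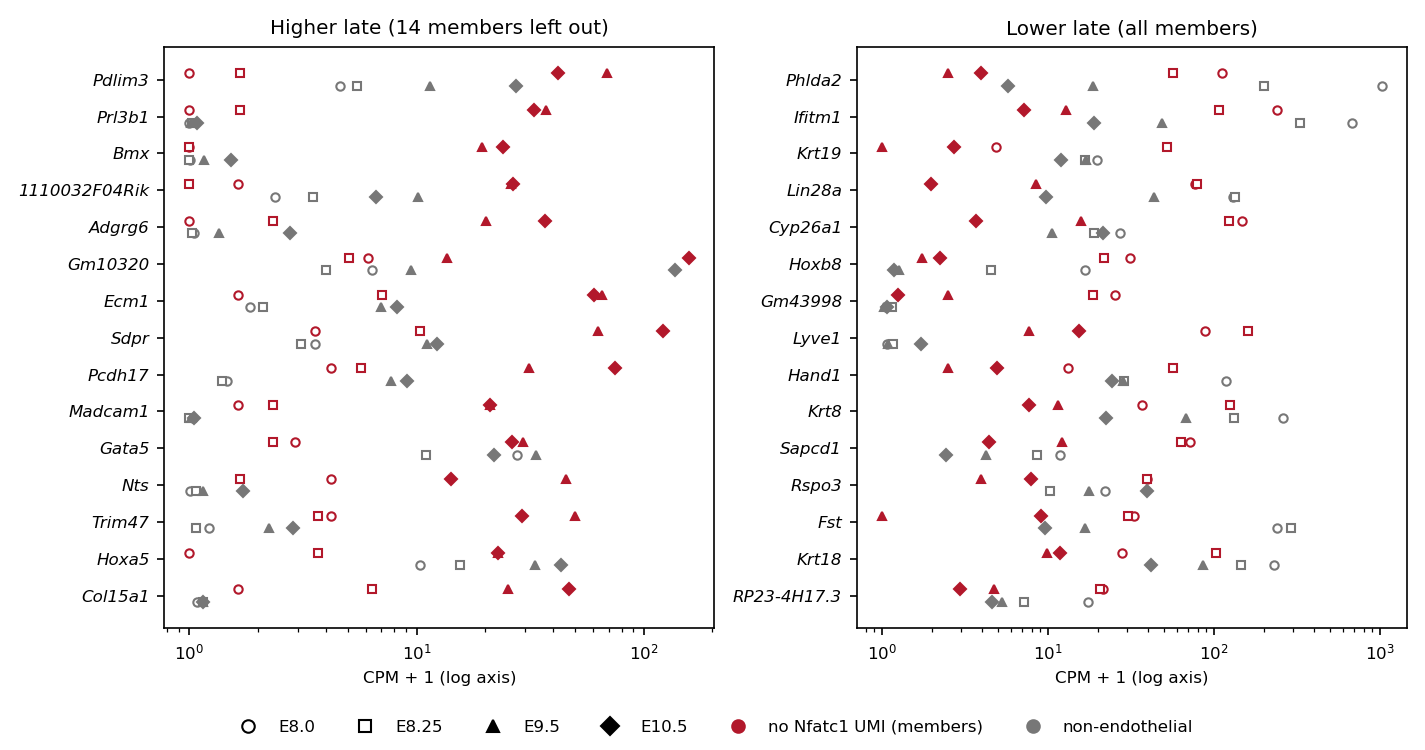
CPM plus 1 (log axis) in the early (open) and late (filled) libraries, in members (red) and non-endothelial cells (grey), for the 15 genes with the largest late excess without the 14 members that carried markers of another type (left) and the 15 with the largest late deficit in all members (right). Madcam1, Bmx and Prl3b1 separate by far more in red than in grey, while Phlda2, Ifitm1 and Lin28a lie lower late in both colours.

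Of the 20 genes taken by the rule between neighbouring stages (Gm5611 counted in both pairs), 16 went the same way in non-endothelial cells and 4 (Actc1, Ankrd1, Krt19 and Fermt3) the other way. Members at E8.0 exceeded those at E8.25 most in Gm5611 (139.7, 1.96, 228 and 7.40 CPM over the 4 libraries), Rpl7a-ps3, Gm9493, mt-Nd4l and Tmem245, and non-endothelial cells had 169, 9.57, 256 and 11.9 of Gm5611. At E10.5 against E9.5 the genes most in excess included mt-Atp8 (89.1, 25.5, 11.9 and 146 in members and 87.8, 28.9, 10.9 and 142 in non-endothelial cells) and Nme2, and the reverse was seen for Tpm3-rs7 and Slc16a3. Several are pseudogenes or copies whose reads can be divided among near-identical sequences. The excess of Actc1 at E8.25, 10.9, 183, 28.3 and 43.4 CPM, became 10.9, 9.39, 22.6 and 8.75 without the members with markers of another type, and that of Ankrd1, 9.61, 114, 12.7 and 5.43, became 9.61, 27.5, 11.7 and 1.80. Krt19 kept its level at E8.25 (3.84, 50.9, 0 and 1.73 and, without those cells, 3.84, 50.3, 0 and 1.80), and Fermt3 lost its level at E9.5 (17.9, 5.88, 57.4 and 12.1 and 17.9, 6.04, 2.52 and 2.32). Itm2a was at 195, 209, 175 and 31.6 CPM, lowest at E10.5 in members and in non-endothelial cells (55.0, 56.6, 145 and 31.0).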

How the data were processed

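Single-cell RNA was measured in 4 libraries of sorted Mesp1-lineage cells (10x Genomics 3′ version 2 kit, 1 library per stage). Per the labels, the authors aligned reads to mm10 with Cell Ranger 3.1.0 and deposited raw UMI counts per gene and cell for 27998 genes, restricted to called cells; the counts were not normalized. Each cell was assigned to a class as described above, and counts were summed per class and library. Fold changes were tested with edgeR 4.0.16 (R 4.3.3; quasi-likelihood test, library as block, its default expression filter, TMM factors, Benjamini-Hochberg adjustment, calls below 0.05), and DESeq2 1.42.0 was an alternative. The pairing of classes by library came from the design, since both were sorted from 1 suspension. The 18 genes of the rule were left out of the test.

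Stages, with 1 library each, were compared by CPM with no test. Shares of cells were computed after thinning each cell to 8000 UMIs with a fixed seed. Counting intervals are exact (95%) and cover counting error only. Doublets were kept. Scrublet (scanpy 1.11.5) marked 1.58%, 0.169%, 0.0247% and 1.14% of cells in stage order by its own threshold, so that in an alternative the top scores were removed at 0.8% per 1000 cells, which took 8, 1, 1 and 27 members. These were 8.89%, 1.56%, 1.20% and 12.5% of members, against 6.06%, 2.37%, 3.23% and 6.43% of all retained cells. Other alternatives were a gate of 4 or 6 genes, no expression filter, no block, other scaling, thinned counts and leaving out each library.

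Genes were named from fixed lists and by a rule: 15 highest and 10 lowest against non-endothelial cells and 10 each way against cells with Nfatc1 (called, same direction in 4 of 4 libraries, mean of 20 CPM or more), 15 each way between stages and 5 each way between neighbouring stages. Members and lists were chosen with earlier results of these data known. The tests across genes and the stage rule were checked on simulated data. Promoters were taken from RefSeq (GRCm38.p6).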

Additional observations from a re-analysis of the deposited data

Results flagged for a closer look

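A number of genes differed between members and cells with an Nfatc1 UMI in one direction in both early libraries and in the other direction in both late ones. This held for 27 of the 129 list genes with 50 CPM or more, and none of these differences was tested. The share over all genes was not counted, so the number cannot be read as an excess, and the genes below are examples only. Slc2a1, a glucose transporter gene, was lower in members by a mean of -38.0 CPM early and higher by 118 CPM late. Sox17, an arterial factor, had mean differences of -39.1 CPM early and 39.8 CPM late. Kcne3 had -86.4 CPM early and 36.6 CPM late, and the early value rests mainly on the 10 cells with Nfatc1 at E8.25. Acvrl1, a BMP receptor of endothelium, had -13.9 CPM early and 25.8 CPM late.

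Members and non-endothelial cells moved in opposite directions between the early and the late libraries, without overlap in either class, in 8 of 100 genes looked at. This was again untested, while 30 moved the same way and 62 overlapped in one class or both. The 100 were not all from the fixed lists, and included genes named from the second comparison, such as Tcf15, Asb4 and Emp3. As the share over all genes was not counted, the 8 cannot be read as an excess or as a trait of members. Hoxb4 was at 39.7, 38.5, 19.4 and 22.0 CPM in members and 20.1, 18.0, 85.6 and 103 in non-endothelial cells, and its log2 ratio of late over early means was -0.89 in members and 2.25 in the others. Hoxb5 had -1.79 and 1.40. Region changed with stage in both classes, and its part in these ratios cannot be told apart.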

How the results depend on the processing

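Against non-endothelial cells 4377 genes were called, and the count kept within 1.5 times of this under each alternative except without the library block (2649). Against cells with Nfatc1 the 43 calls became 9 with DESeq2 (3733 genes had no adjusted p), 211 without the filter on low counts, 0 without the library block, 75 with a gate of 6 or more genes and 79 without cells carrying markers of another type; leaving out 1 library gave 1 to 99. The 492 genes past the stage fold became 3344 without a UMI minimum, and 624 to 1013 when 1 library was left out (288 higher and 336 lower late without E10.5). Leaving out a library makes the fold easier to pass. The share of members at E8.0 became 0.937% with a gate of 6 or more genes and 1.57% with 4 or more, and at E8.25 3.45% with 4 or more. TMM scaling moved late over early values by -0.06 on the log2 scale.

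No named gene changed sign. Of single-gene values against non-endothelial cells 318 kept their call and 3 lost it; against cells with Nfatc1 180 kept their side of the threshold, 99 lost the call and 7 gained it, and 22 of the losses came without E10.5, 20 without E9.5, 23 without the block and 17 with DESeq2. Of 48 shares of thinned cells 23 moved beyond their interval with another depth or none. The cause was not tested.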
